A study of Mus musculus with 2 samples.

Results

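The H3K4me3 peaks described here lay at the ends of noncoding genes and away from the ends of protein-coding genes. A peak was taken when it came within 1 kb of either end of a RefSeq gene model of any biotype other than protein-coding, and was left out when a protein-coding model ended within 1 kb as well. The rule took 2104 of 29924 peaks, or 7.03% (exact 95% Clopper-Pearson interval 6.74 to 7.33). Another 2597 peaks at a noncoding end were left out because a coding end was also within reach. The peaks came from 1 chromatin immunoprecipitation library with an antibody to histone H3 trimethylated at lysine 4 (H3K4me3), made from sorted NOS1+ enteric neurons of the mouse small intestine. NOS1 is the neuronal nitric oxide synthase, and NOS1+ neurons of the gut wall relax smooth muscle. The series also held 1 input chromatin library, which was not analysed here. The labels gave no strain, genotype, age, sex, reporter or number of animals, and no treatment, and there was 1 library of each kind, so no value below has a replicate check. Peaks and gene models are not replicates, and all intervals cover counting error only.

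The sequencing depth is unknown, and a peak that was not called is not shown to be absent. Peaks stood at an end of 8 of 9 enteric neuron marker genes, with Nos1, the gene that names the sorted cells, as the exception. Peaks also stood at 3 of 4 markers of enteric glia, 4 of 4 of smooth muscle, 1 of 3 of interstitial cells, 2 of 3 of epithelium, 1 of 3 of endothelium and 0 of 3 of leukocytes. Over all 21887 protein-coding models, 61.4% had a peak at an end. The marker counts rest on few genes and were not tested against that share. In the authors' list the highest score was 85.9 at a glial marker, 32.6 at a smooth muscle one and 91.5 at an endothelial one (Kdr), and the neuronal markers Elavl4 and Uchl1 scored 96.9 and 60.5. The score was used only to rank and describe peaks within the list. The part of other cells in the peaks below was not tested.

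H3K4me3 is a mark of promoters and is deposited around transcription starts of active and poised genes. Long noncoding RNAs (lncRNAs), microRNA (miRNA) precursors and many small nucleolar RNA (snoRNA) hosts are transcribed by RNA polymerase II, as are protein-coding genes. Transfer RNAs (tRNAs), 7SK and the Y RNAs are transcribed by RNA polymerase III from very short genes, so for them both ends and the start lie close together. A miRNA gene model covers the hairpin alone, and the start of its primary transcript can lie far away or coincide with the start of a host gene.

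Of 91 miRNA genes with such a peak, 83 matched the RefSeq table (build GRCm38.p6, the coordinates of mm10), which gave 145 mature sequences with 138 distinct seeds. The sequences below are arms of miRNAs from the neuronal list, shown because their genes carried peaks in this library. Capitals mark the seed, bases 2 to 8 from the 5′ end, which pairs with target transcripts.
miR-9-5p (Mir9-1, chr3:88215613-88215635, and Mir9-2, chr13:83738821-83738843): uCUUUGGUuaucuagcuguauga
miR-132-3p (chr11:75173723-75173744): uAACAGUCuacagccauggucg
miR-212-3p (chr11:75173443-75173464): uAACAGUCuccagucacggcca
miR-137-3p (chr3:118433901-118433923): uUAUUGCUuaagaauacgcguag
miR-128-3p (Mir128-2, chr9:112118644-112118664): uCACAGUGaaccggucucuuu
miR-129-5p (Mir129-2, chr2:94241419-94241439): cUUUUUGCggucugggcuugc
miR-34b-3p (chr9:51103574-51103595): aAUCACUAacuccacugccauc
miR-34c-3p (chr9:51103044-51103065): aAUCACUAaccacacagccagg
The seed AACAGUC was shared by miR-132-3p and miR-212-3p, whose hairpins lay at a common peak of 1601 bp. The seed AUCACUA was shared by miR-34b-3p and miR-34c-3p, the arms that the table held for both genes, whose hairpins lay at a common peak of 777 bp.

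The next sequences are arms of miRNAs outside the neuronal list that are described below, from the Hox and broadly expressed lists and from the lists of other cell types. Capitals again mark the seed.
miR-10a-5p (chr11:96317186-96317208): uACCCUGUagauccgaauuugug
miR-125b-5p (Mir125b-1, chr9:41581940-41581961): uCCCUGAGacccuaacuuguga
let-7i-5p (chr10:122985698-122985719): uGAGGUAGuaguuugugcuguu
miR-22-3p (chr11:75463772-75463793): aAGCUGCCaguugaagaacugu
miR-338-3p (chr11:120014781-120014802): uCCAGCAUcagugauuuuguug
miR-203-3p (chr12:112130927-112130948): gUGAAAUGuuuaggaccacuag
miR-142a-3p (chr11:87756903-87756925): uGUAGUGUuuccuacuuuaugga
None of these 7 seeds was shared with a mature miRNA of another gene in the set.

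The promoter windows below are RefSeq sequences on GRCm38.p6, each running from 250 bases before to 50 bases after a listed start, 5′ to 3′ on the strand of the gene. They are shown because the CpG content of the window differed between lncRNA starts with and without a peak, as described below. Malat1 had the widest peak, 1500011B03Rik the highest-scoring peak with a window in the table, and Snhg20 and Mir22hg the highest-scoring peaks with a window among lncRNAs whose symbols name them as hosts (Snhg or hg). C130071C03Rik, the host of Mir9-2, was chosen after its values were seen. Capitals mark each CG.
Malat1 (chr19:5802623-5802922, minus strand): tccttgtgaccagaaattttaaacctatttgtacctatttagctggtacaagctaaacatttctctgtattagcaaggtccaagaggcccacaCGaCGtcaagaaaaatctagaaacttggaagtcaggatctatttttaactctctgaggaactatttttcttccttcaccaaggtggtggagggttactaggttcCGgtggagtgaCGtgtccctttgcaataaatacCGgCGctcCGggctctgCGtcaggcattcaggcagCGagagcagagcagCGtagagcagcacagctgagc
1500011B03Rik (chr5:114813927-114814226, minus strand): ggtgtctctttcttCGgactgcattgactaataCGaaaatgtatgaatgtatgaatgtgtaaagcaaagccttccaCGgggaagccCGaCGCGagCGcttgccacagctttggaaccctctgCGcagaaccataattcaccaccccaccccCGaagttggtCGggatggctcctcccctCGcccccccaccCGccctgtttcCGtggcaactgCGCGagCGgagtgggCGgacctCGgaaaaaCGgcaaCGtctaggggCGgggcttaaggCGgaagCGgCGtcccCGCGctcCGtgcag
Snhg20 (chr11:117076533-117076832, plus strand): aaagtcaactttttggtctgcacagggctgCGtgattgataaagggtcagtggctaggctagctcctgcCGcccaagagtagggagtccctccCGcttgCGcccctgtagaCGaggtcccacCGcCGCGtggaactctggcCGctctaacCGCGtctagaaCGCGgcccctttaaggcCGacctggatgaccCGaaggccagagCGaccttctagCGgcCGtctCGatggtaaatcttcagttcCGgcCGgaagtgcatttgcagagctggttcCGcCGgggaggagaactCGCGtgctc
Mir22hg (chr11:75461289-75461588, plus strand): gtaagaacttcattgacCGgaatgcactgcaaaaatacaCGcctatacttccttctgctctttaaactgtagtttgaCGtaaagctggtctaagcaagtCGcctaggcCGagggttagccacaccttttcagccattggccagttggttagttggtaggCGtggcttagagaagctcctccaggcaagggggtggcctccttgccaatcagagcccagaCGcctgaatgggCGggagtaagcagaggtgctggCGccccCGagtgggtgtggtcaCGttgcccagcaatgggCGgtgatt
C130071C03Rik (chr13:83721131-83721430, plus strand): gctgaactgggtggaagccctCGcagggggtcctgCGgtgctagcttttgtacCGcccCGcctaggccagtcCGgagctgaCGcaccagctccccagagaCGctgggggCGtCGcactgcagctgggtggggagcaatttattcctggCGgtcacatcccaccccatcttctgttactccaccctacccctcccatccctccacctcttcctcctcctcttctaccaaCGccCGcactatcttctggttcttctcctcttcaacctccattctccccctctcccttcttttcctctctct
The peak of Mir22hg began at position 75461577 of chromosome 11, close to the 3′ end of its window. The windows held 10 CG in Malat1, 27 in 1500011B03Rik, 25 in Snhg20, 12 in Mir22hg and 12 in C130071C03Rik. The motif TATAAA, searched on both strands, was in none of the 5 windows.

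By biotype, tRNA models carried these peaks far more often than any other abundant class, and pseudogenes least often. Over all biotypes, 1882 of 28056 noncoding models had a peak of the set (6.71%), and 3822 had any peak at an end (13.6%), against 61.4% of protein-coding models. The share was 40.2% for tRNAs (164 of 408 models, interval 35.4 to 45.1), 11.8% for transcribed pseudogenes (57 of 485), 10.4% for lncRNAs (1326 of 12727) and 7.41% for miRNAs (91 of 1228). It was 4.08% for small nuclear RNAs (snRNAs, 41 of 1004), 2.84% for snoRNAs (38 of 1340) and 1.4% for pseudogenes (139 of 9944). When peaks shared with a coding end were counted too, the shares were 53.7% for tRNAs, 22.4% for lncRNAs, 16.6% for miRNAs, 15.9% for transcribed pseudogenes, 9.78% for snoRNAs, 6.77% for snRNAs and 2.25% for pseudogenes. Of the 131 snoRNA models with a peak at an end, 93 had it at a coding end alone. No peak lay at any of 394 immunoglobulin and T cell receptor V segments (upper limit 0.932%) or of 63 ribosomal RNA models (upper limit 5.69%). Since the handling of multi-mapping reads is not given, missing calls at genes with repeated sequence are uncertain. In the other direction, 1632 of the 2104 peaks lay at a lncRNA (77.6%), 152 at a pseudogene, 143 at a tRNA, 105 at a miRNA, 69 at a transcribed pseudogene, 47 at an snRNA and 32 at a snoRNA, and 105 peaks lay at 2 or more biotypes.

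**Figure D1:**
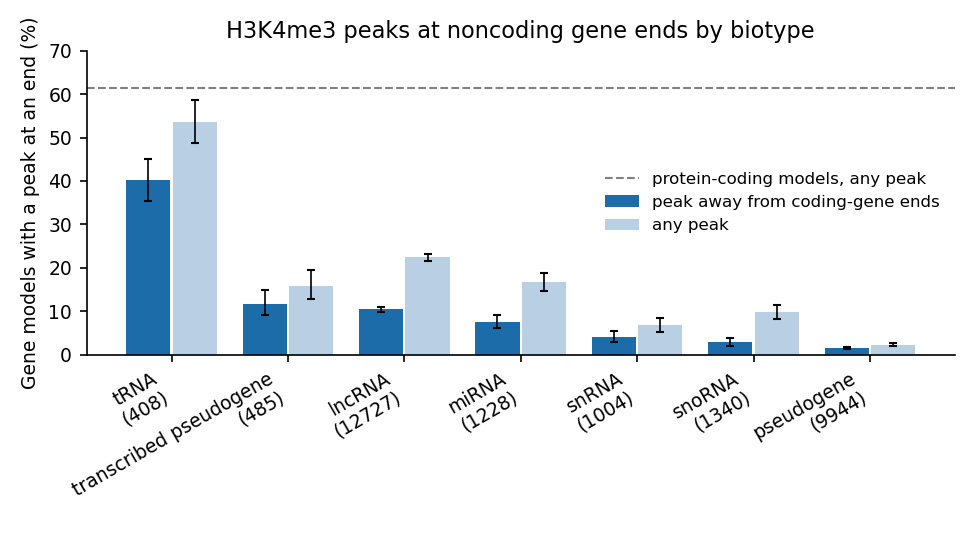
Share of gene models with an H3K4me3 peak within 1 kb of an end, by biotype, with the number of models in brackets. Dark bars count peaks away from coding-gene ends, light bars any peak, error bars are exact 95% intervals, and the dashed line is the 61.4% of protein-coding models with a peak, which tRNAs approach at 53.7%.

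The peaks were narrower and lower in score than those at coding ends. Their median width was 526.5 bp (interval 497 to 554, quartiles 256 and 1066, range 153 to 7839), against 1190 bp at coding ends, 312 bp for peaks inside coding models alone and 317 bp for peaks between genes. The median score was 21.4, against 115.9 at coding ends, 9.12 inside coding models and 12.7 between genes. A width of at least 2000 bp was reached by 164 of the 2104 peaks (7.79%) and by 17.6% of the peaks at coding ends. Scores in the top 25% of the whole list were held by 10.4% and 41.3%. The order of widths depended on the score: among the 25% of all peaks with the highest scores, 218 peaks at noncoding ends remained, and their median width of 1794.5 bp was 177.5 bp above that of coding-end peaks. Between biotypes, median widths were 781 bp at transcribed pseudogenes, 764 bp at tRNAs, 593 bp at miRNAs, 528 bp at lncRNAs, 475 bp at snoRNAs, 465 bp at snRNAs and 390.5 bp at pseudogenes. The intervals of tRNAs (574 to 1043) and miRNAs (416 to 966) overlapped, as did those of miRNAs and lncRNAs (491 to 560), whereas tRNAs and lncRNAs did not overlap.

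**Figure D2:**
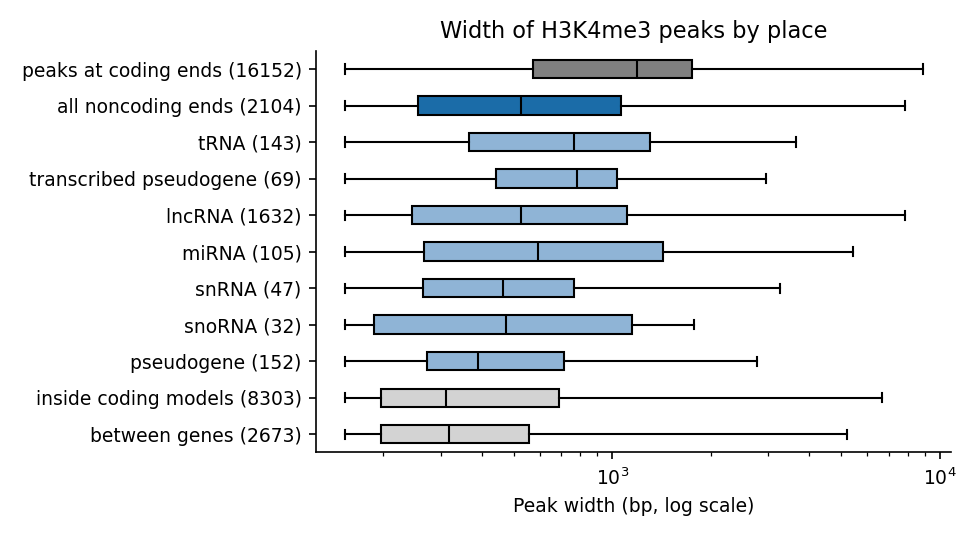
Width of H3K4me3 peaks by place and by biotype of the noncoding gene, on a log scale, with the number of peaks in brackets. Boxes span the quartiles around the median and whiskers reach the narrowest and widest peak, and the median falls from 1190 bp at coding ends to 526.5 bp at noncoding ends and 312 bp inside coding models.

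At lncRNAs the peaks stood mainly at the 5′ end. RefSeq gave a strand for 9533 of the 12727 lncRNA models, and 880 of these had a peak of the set at the 5′ end (9.23%, interval 8.66 to 9.83) and 276 at the 3′ end (2.90%, interval 2.57 to 3.25). In models of at least 5 kb, where 1 peak rarely reaches both ends, the shares were 8.64% and 1.52%. Protein-coding models had any peak at the 5′ end in 59.8% and at the 3′ end in 7.52%. Median widths were 352.5 bp for peaks at the 3′ end alone and 530.5 bp for those at the 5′ end alone. In the 636 lncRNAs of at least 5 kb with a peak of the set at either end, 47.8% were covered at the 5′ end itself, and coverage was highest, at 54.4%, 140 bp downstream. At the 3′ end 3.30% were covered.

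**Figure D3:**
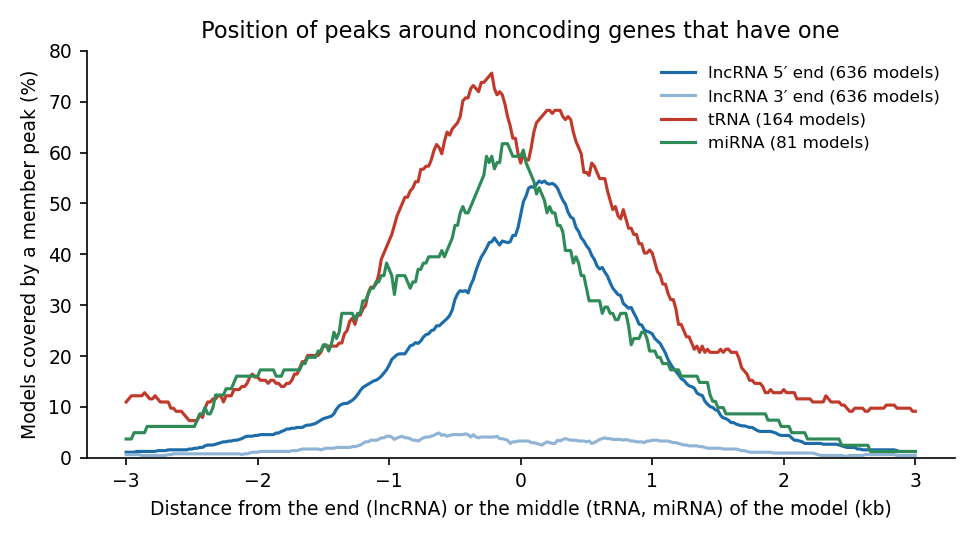
Share of noncoding models with a peak of the set that a peak covers at each distance from the 5′ or 3′ end (lncRNAs of at least 5 kb) or from the middle of the gene (tRNAs and miRNAs). Positive distances are downstream for lncRNAs and miRNAs and toward higher coordinates for tRNAs, for which coverage is lower over the gene (57.9%) than 220 bp to its side (75.6%).

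The widest peak, 7839 bp with a score of 196.3 at chr19:5795783-5803621, reached from inside the 3′ end to beyond the 5′ end of Malat1, the abundant lncRNA of nuclear speckles, and also covered Mascrna, the small RNA cleaved from its 3′ end. Neat1, the scaffold of paraspeckles, had peaks of 3535 bp (score 58.8) and 1170 bp (score 53.5). A list of 22 held lncRNAs of the nucleus and of X inactivation, imprinted lncRNAs, snoRNA hosts and others such as Norad and Dancr. Of these, 15 had a peak of the set and another 5 had a peak shared with a coding end. Over all lncRNAs, 10.4% had a peak of the set and 22.4% any peak. Of the 22 listed genes, 20 were lncRNA models, and 14 of the 20 had a peak of the set. Xist, the RNA that coats the inactive X chromosome, had peaks of 469 bp (score 15.4) and 153 bp (score 7.32) at its 5′ end. Jpx and Ftx, noncoding neighbours of Xist in the X inactivation centre, had wider peaks of 1522 bp (score 75.9) and 961 bp (score 49.1), and Firre, another X-linked lncRNA, had peaks of 1232 bp (score 98.6) and 399 bp (score 27.2). The imprinted antisense lncRNAs Kcnq1ot1 and Airn had 5′ peaks of 2108 bp (score 65.3) and 1592 bp (score 41.6), and Tsix and H19 had no peak at an end.

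Among hosts of snoRNAs in the same list, Snhg3 scored 155.2 over 1743 bp and Snhg12 scored 146.2 over 1422 bp. Dancr reached a score of 161.5 over 1171 bp. Gas5, Snhg1, Snhg8 and Epb41l4aos, like Tug1, had peaks that were shared with a coding end, with highest scores from 160.5 at Snhg1 to 215.2 at Snhg8.

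Of 15 lncRNAs known from neurons, 9 had a peak of the set and 1 more a peak at a coding end only, beside 10.4% of all lncRNAs with a peak of the set and 22.4% with any peak. C130071C03Rik, the host of Mir9-2, had a peak of 3756 bp (score 105.7) over its 5′ end, 52.5 kb from Mef2c. Oip5os1, a highly conserved lncRNA also called Cyrano, had the highest score of the list, 219.9 over 1793 bp. Peg13, an imprinted lncRNA, had 4 peaks, the widest of 3848 bp (score 101.3). The imprinted Meg3 had a peak of 1955 bp (score 30.04) and Miat, a nuclear lncRNA of neurons, 1 of 1194 bp (score 19.2). Lncenc1 and Snhg11 had narrow peaks, of 297 bp and of 248 to 471 bp. Rmst, Snhg14, Rian, Mirg and A330008L17Rik had no peak at an end. The median peak of this list was 513 bp wide and scored 17.9, close to the medians of all lncRNA peaks (528 bp and 20.2).

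Among lncRNAs beside developmental regulators, 8 of 22 had a peak of the set and 6 more a peak only at a coding end, beside the same 10.4% and 22.4%. The 22 held 3 models of the antisense RNA biotype, and 7 of the other 19, all lncRNA models, had a peak of the set. Zeb2os, antisense to Zeb2, a transcription factor needed for neural crest and enteric nervous system development, had the second widest peak of the set, 6693 bp with a score of 143.8 at chr2:45107253-45113945, 3.50 kb from the end of Zeb2 and inside its model. The other peaks of this list were smaller, with a list median of 412 bp. Nkx2-2os had 1123 bp (score 52.8), Tunar, a lncRNA of neural differentiation, 881 bp (score 32.6), Sox1ot 3 peaks of 322 to 663 bp, and Pantr2 peaks of 409 and 415 bp. Six3os1, Dlx6os1, Otx2os1, Sox2ot, Emx2os and Evx1os had no peak at an end. In the Hox clusters 3 of 17 noncoding genes had a peak of the set (Mir10a, Hoxb3os and Hoxd3os1) and 7 more had peaks at a Hox gene end only, beside 6.71% and 13.6% of all noncoding models with a peak of the set and with any peak. Hoxb3os had 3 peaks of the set at its 3′ end, the widest of 2178 bp (score 118.1).

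Among the 15 widest peaks, 12 lay inside a protein-coding model. The miRNA gene Mir10a stood at a peak of 5423 bp (score 104.4), inside Hoxb3 and 1.07 kb from an end of Hoxb4. The lncRNA Gm51670 and Mir125b-1 shared a peak of 4986 bp (score 116.8), 321.4 kb from the nearest coding end. Predicted lncRNAs of little known function made up most of the rest: Gm31365 inside Tnrc18 (4783 bp), Gm17396 inside Rbms3 (4745 bp), Gm35655 inside Tgfb2, a growth factor gene (4560 bp), LOC115488151 inside Lhfpl2 (4519 bp), Gm35290 inside Anks1 (4478 bp), Gm15222 inside Bmp4, a gene of a bone morphogenetic protein (4140 bp), Gm7854 inside Cpeb2 (4135 bp), Gm4221 inside Zfp608 (4114 bp) and Gm51556 inside Gse1 (4105 bp). Lncpint, a p53-regulated lncRNA, had a peak of 4064 bp outside coding models, and a peak of 3980 bp inside Hoxa3 lay at 3 lncRNA models. These 15 peaks had scores from 91.5 to 196.3, and none was among the 10 highest.

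The highest score, 511.8 over 944 bp, belonged to the pseudogene Gm10060 on chromosome 8. Reads from near-identical copies of a pseudogene cannot be told apart by position, and how the authors treated them is not given in the sources used here, so this value is uncertain. The next scores were 277.8 at 1500011B03Rik, 271.5 at 1110020A21Rik inside Ppm1b, 259.0 at 4930405A21Rik inside Dlgap4, 254.8 at Zbtb11os1 inside Zbtb11 and 251.6 at Gm9958 inside Ankrd17. They were followed by 251.4 at a cluster of 4 tRNAs on chromosome 1, 249.3 at Mir1893 inside Epc1, 246.3 at Gm33409 inside Pdpk1 and 243.3 at 4930507D05Rik inside Supv3l1. All 10 peaks were between 944 and 2764 bp wide. Of the lncRNAs, 4, 1110020A21Rik, Zbtb11os1, Gm9958 and 4930507D05Rik, lay 1.04 to 1.82 kb from a coding end, past the limit of 1 kb. Of the coding genes around them, Ppm1b had its own peak at an end, whereas Zbtb11, Ankrd17 and Supv3l1 had none. Whether these peaks belong to the coding or the noncoding gene was not tested.

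The tRNA peaks, with their median width of 764 bp, scored 56.8 at the median, and 6.29% of the 143 lay inside a coding model. Of 233 pairs of a peak and a tRNA, 114 overlapped the tRNA itself (48.9%), and in the others the median gap was 211 bp. Around the 164 tRNAs with a peak, coverage was 57.9% at the middle of the gene and reached 75.6% at 220 bp to the side of lower coordinates, so the maximum of called peaks stood beside the tRNA and not on it. How reads from repeated sequences were treated is not given, and their part in the lower coverage over the gene was not tested. Clusters shared peaks: 59 of the 143 peaks lay at 2 or more tRNAs and at most at 5, so tRNAs of a cluster are not independent. The widest tRNA peak, 3645 bp (score 124.1), lay at 5 tRNAs and the lncRNA Gm31151 on chromosome 19.

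By the amino acid in the symbol, the share with a peak of the set was 75% for proline (12 of 16), 71.4% for phenylalanine (5 of 7), 70.6% for threonine (12 of 17), 64.0% for leucine (16 of 25) and 62.5% for tryptophan (5 of 8). Cysteine stood at the other end with 2 of 56 (3.57%, interval 0.435 to 12.3), and 48 of these genes lay on chromosome 6, where none had a peak (upper limit 7.40%), while 2 of 8 elsewhere did. The part of the unknown handling of multi-mapping reads in the missing calls on chromosome 6 was not tested. The remaining amino acids lay between 27.3% (serine) and 54.5% (valine), with wide, overlapping intervals. By chromosome, 62 of 105 tRNAs on chromosome 13 had a peak (59.0%), 1 of 53 on chromosome 6 and 0 of 17 on chromosome X. Without chromosomes 6 and X the share over all tRNAs was 48.2%.

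Counting tRNAs, snRNAs, snoRNAs and other structural RNAs together, 249 of 2867 models had a peak of the set (8.69%, interval 7.68 to 9.78). In 181 more a peak lay only at a coding end. Over all noncoding models, 6.71% had a peak of the set and 13.6% any peak. The pooled share joined tRNAs at 40.2% with snRNAs at 4.08% and snoRNAs at 2.84%. Rn7sk, the 7SK RNA that holds the elongation factor P-TEFb inactive, had a peak of 1141 bp (score 154.5). Both Y RNA genes had peaks, Rny1 of 1070 bp (score 72.1) and Rny3 of 767 bp (score 99.5) and 494 bp (score 10.6). Rn7s2, an RNA of the signal recognition particle, had 641 bp (score 76.9), and Terc, the RNA template of telomerase, 716 bp (score 57.6). Rmrp, Rpph1 and Rn7s1 had peaks at a coding end and were therefore outside the set. The snRNA with the highest score was Gm23205 inside Rnf14 (1576 bp, score 234.5), and the widest snRNA peak, 3251 bp, lay at LOC115488883 inside Ddr1.

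Of the genes in the neuronal miRNA list, 12 of 26 carried peaks, and none had a peak at a coding end only. Leaving out the 3 lncRNA hosts in the list, 11 of 23 miRNA models had a peak of the set (47.8%), against 7.41% of all miRNA models. Mir9-2, which yields the miR-9-5p sequence shown above, known for roles in neurogenesis, had peaks of 1796 bp (score 37.3) and 1013 bp (score 27.2), and Mir9-1 had 1 of 838 bp (score 17.9). Mir124a-3 scored 11.7 over 1603 bp, and Mir124a-1 had peaks of 153 to 655 bp, with further peaks of 1546 bp (score 48.0) and 513 bp at its host Mir124a-1hg. Both are genes of miR-124, an abundant neuronal miRNA. Mir132 and Mir212, induced by neuronal activity, shared the peak of 1601 bp (score 81.8), which had the highest score of the list. Mir137 had 1013 bp (score 35.9), Mir34b and Mir34c 777 bp (score 40.3), Mir129-2 632 bp (score 9.12) and Mir128-2 190 bp (score 9.13). The 14 without a peak included Mir124a-2, Mir9-3, Mir128-1, Mir153, Mir218-1 and Mir375.

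Genes from the lists of other cell types also had peaks. Over all miRNA models, 7.41% had a peak of the set and 16.6% any peak. The epithelial list, at 10%, and the endothelial and leukocyte list, at 11.1%, lay above that 7.41%. Neither had a further peak at a coding end, so both lay below the 16.6%. Some lists also held lncRNA hosts. Without the hosts, 1 of 7 smooth muscle miRNA models had a peak of the set (14.3%) and 4 of 29 broadly expressed ones (13.8%). In the glial list 1 of 3 genes had a peak of the set and Mir219a-1 a peak at a coding end. Mir338, an oligodendrocyte and neuron miRNA in an intron of Aatk, had peaks of 2698 bp (score 45.2), 502 bp and 153 bp. In the smooth muscle list 2 of 8 genes had a peak: the host lncRNA Carmn, with peaks of 3776 bp (score 40.6) and 315 bp, and Mir145a, with 243 bp (score 12.5), while Mir143, Mir1a-1 and Mir133a-1 had none. Mir203 was the only gene with a peak of 10 epithelial ones (1176 bp, score 93.8), and Mir192, Mir194-1, Mir200a, Mir200b, Mir141 and Mir429 had none. Mir142, a leukocyte miRNA, had 3 peaks of 157 to 373 bp with scores up to 9.48, and was the only 1 of 9 endothelial and leukocyte genes with a peak. Of broadly expressed miRNA genes 5 of 31 had a peak of the set, among them Mirlet7i (3425 bp, score 171.8), Mir22 with its host Mir22hg (2011 bp, score 199.2) and Mir30a (953 bp, score 24.2). Intervals on these lists were wide and overlapped, from 26.6% to 66.6% for the neuronal and from 0.253% to 44.5% for the epithelial list.

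Outside the lists, the highest scores at miRNA models were 249.3 at Mir1893, 218.6 over 1825 bp at Mir6516 with its neighbour Snhg20, and 210.9 over 2792 bp at Mir6976 inside Srf, the gene of serum response factor. Mir1932 inside Rnf213 had 3773 bp. Of the 105 miRNA peaks, 58.1% lay inside a coding model and 13 also lay at a lncRNA end. Seeds shared between genes included ACUGGCC of miR-193a-3p and miR-193b-3p, whose genes lay on different chromosomes at peaks of 1648 bp (score 116.8) and 2171 bp (score 141.1).

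At pseudogenes the median peak was 390.5 bp wide and scored 19.4, and at transcribed pseudogenes 781 bp and 45.2. The widest pseudogene peak, 2770 bp (score 103.0), lay at Casp16 together with 2 arginine tRNAs and the lncRNA 6330415G19Rik. Among transcribed pseudogenes Mx2, an interferon-response gene, had the widest peak at 2959 bp (score 32.5), H2-T10 of the major histocompatibility complex had 2425 bp (score 76.3), and 4632415L05Rik had the highest score at 231.3 over 1134 bp.

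For most peaks the nearest coding gene, at whatever distance, had its own peak at an end. Distances varied widely, and the rule itself left out peaks within 1 kb of a coding end. The median distance to the nearest coding end was 12.4 kb (quartiles 4.26 and 37.4 kb), and 822 of the 2104 peaks (39.1%) overlapped a coding model. The nearest coding gene had its own peak at an end for 1539 peaks (73.1%, interval 71.20 to 75.03), against 61.4% of all coding models. This was 76.9% for peaks outside coding models and 67.3% for those inside. Counting each nearest coding gene once, 1056 of 1450 had a peak (72.8%). Widths followed no steady order with distance: the median was 452.5 bp at 1 to 2.5 kb, between 494 and 602 bp in the bins from 2.5 to 100 kb, and 447.5 bp beyond 100 kb. The share inside a coding model was 67.6% in the nearest bin and 25.8% in the farthest.

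**Figure D4:**
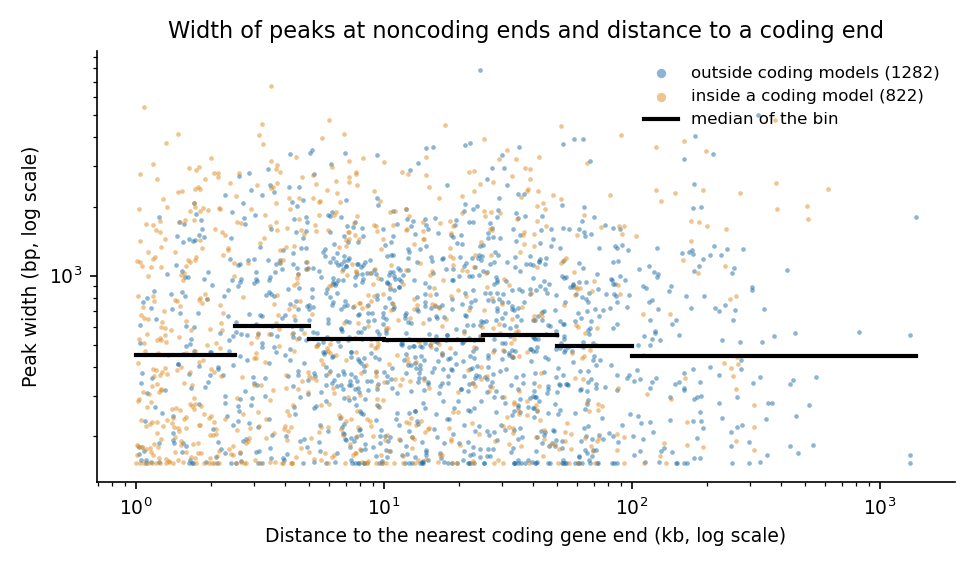
Width of each of the 2104 peaks at noncoding ends against its distance to the nearest coding gene end, both on log scales, coloured by whether the peak overlaps a coding model. Black lines are medians per distance bin and stay between 447.5 and 602 bp.

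By width, the widest peaks differed from the rest in their coding neighbours. Of the 164 peaks of at least 2000 bp, 67.1% lay inside a coding model and for 56.7% the nearest coding gene had a peak at an end, against 43.4% and 77.8% of the peaks under 300 bp. A start that RefSeq lists for a coding gene lay within 1 kb of 41.5% of these wide peaks and of 7.97% of the narrow ones, and in such peaks a coding and a noncoding start cannot be told apart. Over all 2104 peaks, a listed noncoding start lay within 1 kb of 1071 (50.9%), a listed coding start of 266 (12.6%), both of 190 and neither of 957 (45.5%). The 266 were 1227 bp wide at the median and scored 72.6. Without them the median width of the set was 487 bp. Where the nearest coding gene had a peak, the noncoding peak was the wider one in 269 of 1539 cases (17.5%), in 77 of 93 when it was at least 2000 bp wide, and in 33 of 98 at tRNAs (33.7%). The 77 of 93 follows largely from choosing these peaks by width, since only 17.6% of coding-end peaks reached 2000 bp, and no conclusion is drawn from it.

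The lncRNA 5′ ends with a peak lay outside coding models in 58.5% of 880 cases, inside 1 on the opposite strand in 33.3%, inside 1 on the same strand in 1.59%, and inside a model of unknown strand in 6.59%. Of 36 that lay outside and within 5 kb of a coding 5′ end, 26 were head to head with it (72.2%, interval 54.8 to 85.8). Over all 515 that lay outside, at any distance from the nearest coding 5′ end, 163 were head to head (31.7%, interval 27.7 to 35.9). These strand shares were not computed for lncRNA models without a peak. They may therefore describe the gene models as much as the peaks, and no conclusion is drawn from them.

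Several coding genes were the nearest neighbour of many peaks. Trim7 on chromosome 11 was nearest to 9 peaks (153 to 2902 bp), and Abt1 and Trim27 on chromosome 13 to 8 each, mostly at tRNA genes. Tex14 was nearest to 7 narrow peaks (165 to 527 bp) at U1 and U3 RNA genes such as Rnu1a1 and Rnu3b1. Calm2, a calmodulin gene, was nearest to 6 peaks at 3 lncRNAs, and Septin9 to 6 peaks at 5 lncRNAs. The peaks farthest from any coding end were 1 of 1805 bp at 1700019L22Rik (1392 kb from Tenm3), 3 of 153 to 553 bp at Gm13470 (1326 kb from Zeb2 at most), 1 of 569 bp at Gm40174 and 1 of 2388 bp at Gm19744. Of the noncoding models, 86 had 3 or more peaks of the set, and 6 had 4: Gm36388, Gm14486, Gm40078, Gm15050, Gm26908 and Peg13.

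CpG content differed between lncRNA starts with and without a peak. Of 10014 listed lncRNA starts away from coding ends, 844 had a peak over the window of 300 bases (8.43%), against 59.6% of 21263 coding starts. The 704 starts with a peak of the set had a median observed-to-expected CpG ratio of 0.563 and 12 CG, those without a peak 0.205 and 3 CG, and coding starts with a peak 0.778 and 22 CG. In the bins from 0 to 0.2 up to 1 or more, the share of lncRNA starts with a peak was 1.48%, 5.07%, 17.1%, 42.2%, 70.4% and 77.4%. For coding starts in the same bins it was 5.15%, 24.4%, 68.7%, 91.8%, 97.1% and 97.9%. In each bin the share was lower for these lncRNA starts than for coding starts, and the intervals did not overlap. The coding starts were not filtered in the same way. The bins left out 1573 lncRNA starts within 1 kb of a coding end. Of these, 1128 had a peak (71.7%, interval 69.4 to 73.9), against 59.6% of coding starts. Their median ratio was 0.699, against 0.567 for all coding starts. Whether their share was lower than that of coding starts within bins was not tested. Of the windows shown above, 1500011B03Rik (0.981) and Snhg20 (0.896) lay in the bin from 0.8 to 1, Malat1 (0.604) in that from 0.6 to 0.8, and Mir22hg (0.541) and C130071C03Rik (0.492) in that from 0.4 to 0.6. The motif TATAAA was in 9.94% of the windows with a peak of the set, 17.5% of lncRNA windows without a peak, 6.03% of coding windows with a peak and 13.6% of all windows.

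**Figure D5:**
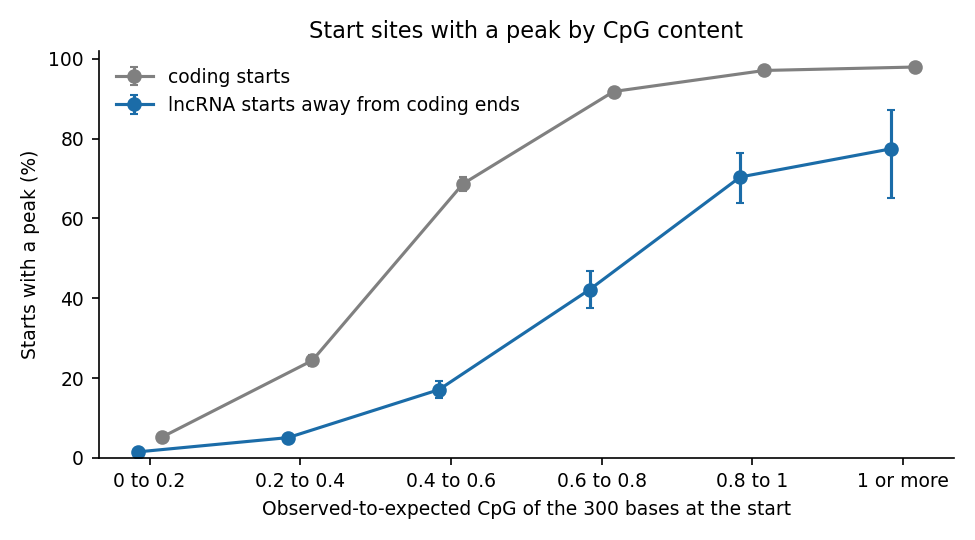
Share of listed starts with an H3K4me3 peak over the window of 300 bases, by its observed-to-expected CpG ratio, for coding starts and for lncRNA starts away from coding ends. Error bars are exact 95% intervals, and lncRNA starts rise from 1.48% to 77.4% while coding starts rise from 5.15% to 97.9%.

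The limits of the rule cut through narrow and wide peaks alike. Just inside the limit to a coding end, at 1001 to 1012 bp, lay peaks at Gm51809 (153 bp), Gm36620 (166 bp), Gm51264 (1157 bp) and Gm38599 (183 bp). Just outside it, at 988 to 996 bp, lay peaks at Gm51565 (479 bp), Snora68 (153 bp), LOC115488657 (229 bp) and Gm30364 (1360 bp). Just inside the limit to a noncoding end lay peaks at Fendrr (278 bp), Gm16063 (186 bp), Gm51888 (153 bp) and Mir100hg (722 bp). Just outside it, at 1002 to 1003 bp, lay peaks near Gm20045 (2387 bp), Gm11767 (177 bp), Mir6976 (344 bp) and 2900089D17Rik (715 bp).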

How the data were processed

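Of the 2 libraries, the peak list of the H3K4me3 immunoprecipitate was used. The authors' deposited list gives each peak a position and a score. MACS2 called the peaks from a paired-end library, per the file headers. BWA, Picard, MACS2 and mm10 are named, per the submitters' processing notes, without roles or versions. Not given in the sources used here are the threshold, the handling of duplicate and multi-mapping reads, what the score measures, and the depth, so peak calls and widths depend on an unknown depth. The smallest score was 2.00.

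Gene models, mature miRNAs and promoter windows came from RefSeq tables on GRCm38.p6. A peak counted as at an end when at least 1 bp lay within 1 kb of it. Strand was known only for genes with a listed start. Results are counts, medians and shares with exact 95% intervals (Clopper-Pearson, or binomial order statistics for medians), with no test, since 1 library allows none. Python 3.11.15, pandas 2.3.3, numpy 2.4.6, scipy 1.17.1 and matplotlib 3.10.9 were used. On simulated data 200 of 200 peaks placed at noncoding ends and 200 of 200 at coding ends were recovered, which tests only the code.

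The peaks, gene lists and markers were chosen with earlier results of these data known. Genes named were listed genes with a peak (up to 6 by width) and up to 6 without, the 15 widest and 10 highest-scoring peaks, the widest of each biotype, the 6 farthest from a coding end, those nearest the limits, and models with most peaks. Other genes, such as some named by score within a biotype, by nearest coding gene or by a shared seed, were chosen after their values were seen. Alternatives were score thresholds, windows, merging, gene sets, a minimum width and listed coding starts.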

Additional observations from a re-analysis of the deposited data

How the results depend on the processing

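No paired analysis was possible because there was 1 immunoprecipitate and its input was not analysed here. Of 72 values under 9 alternatives, 21 stayed within their interval or, for counts, within 1.5 times. Another 50 moved further, and 1 turned its direction. Direction was checked only for the difference in median width, which is the value that turned. A minimum width of 300 bp and leaving out peaks at a listed coding start were chosen after seeing the data. The cause of each shift was not tested beyond the setting itself.

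The widths depended most on the score. With the 25% of peaks with the highest scores, 218 peaks remained in the set (2.91% of peaks), with a median width of 1794.5 bp, a median score of 175.7, 83.5% at a lncRNA, 55.0% in a coding model and 0.980% of noncoding models with a peak, and the difference in median width from coding-end peaks turned to 177.5 bp. With the 50% highest, 814 remained (5.44%), with 1171.5 bp, a score of 92.4, a difference of -280.5 bp and 3.26% of models.

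With peaks that cover the noncoding end itself, there were 857 (2.86%), with 994 bp, a score of 57.6, a difference of -196 bp, 72.7% at a lncRNA, 36.1% in a coding model and 3.40% of models. With windows of 500 bp at noncoding ends, the share of peaks was 5.52%, with 614.5 bp, a score of 28.8, a difference of -575.5 bp, 36.8% in a coding model and 5.62% of models. With 2500 bp around coding ends left out, it was 5.89%, with a difference of -478.5 bp, 33.6% in a coding model and 5.61% of models. With peaks closer than 1 kb merged, widths were 914 bp, the score 34.0, the difference -812 bp, the share in a coding model 33.6% and that of models 5.94%.

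Without pseudogene models the share of peaks was 6.35%, that at a lncRNA 85.9% and that of models 9.66%. With a minimum width of 300 bp the median was 800 bp, the score 42.9, the difference -530 bp and the share of models 5.33%. Without peaks at a listed coding start the share of peaks was 6.14%, with 487 bp, a score of 18.9, a difference of -703 bp, 75.6% at a lncRNA, 30.3% in a coding model and 5.999% of models. Depth limits all of these values, since it is unknown.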
